A study of Danio rerio with 32 samples.

Results

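The 200 most abundant transcripts of the early zebrafish embryo, chosen by their mean over the 8 control libraries, were taken from a table of 15710 genes. Polyadenylated RNA of whole embryos had been sequenced. Embryos were exposed to valproic acid, an epilepsy drug known to inhibit histone deacetylases, to all-trans retinoic acid, a ligand of nuclear receptors, or to folic acid, the vitamin that the design names as its negative control. The control group was kept without a compound, and per the labels every group was held in Dutch standard water with 0.01% DMSO. Exposure ran for 4 h, from 3 to 7 h after fertilization, and each group has 8 libraries. The labels give no dose, strain or number of embryos per library, and do not say whether the replicates are separate clutches, so p-values measure only the spread between these libraries. Sample titles are numbered up to 48, and every 12 numbers (1 to 12, 13 to 24, 25 to 36 and 37 to 48) form a set with 2 libraries of every group. The labels do not say what the numbers stand for.

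The first hours of a fish embryo run on RNA that the mother stored in the egg. Control then passes to the embryo's own genome, which is switched on in the blastula, and by gastrulation the most abundant messages serve fast cell division: proteins that package chromatin, splice and store RNA, and make protein. Products of the mitochondrial genome, which encodes subunits of the respiratory chain, are also abundant in eggs and embryos, and the enveloping layer, a thin outer epithelium, supplies keratins.

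Values are deposited normalized expression on a log2 scale, on which 1 unit is a 2-fold change. Every library has the same distribution of values: over ranks 1 to 200, the value at a given rank differed between libraries by at most 0.030. At these levels a value is therefore close to a rank, and a gene can move only by changing its rank among the other genes. The values are not scaled for transcript length, so the order of genes is an order of normalized read level, not of molecules. Fewer cells of a type and less RNA per cell cannot be told apart in whole embryos.

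The control means, which chose the members, ran from 13.73 to 19.29 with a median of 14.38, against a median of 7.83 over all genes. They are given as a description, with no test. LAMB1, RPS3A and RPL10A stood just inside the limit at 13.73, and PTBP1, MT-ND5 and PRPF39 just outside it at 13.72. Choosing 200 genes by the folic acid mean gave 192 of the same genes, and choosing them by the mean of all 32 libraries gave 194. A symbol was found for 199 of the 200 identifiers, and 21 members share their symbol with another gene of the table, so values of such copies are uncertain to the extent that their reads were split in counting. The members took 34.4% to 35.6% of a library's summed linear values, with a median of 35.5%. Since values at each rank are alike in all libraries, this share had little room to vary. Its narrow range is therefore no sign of steady members.

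By function, RNA-binding and splicing proteins made up the largest set, with 62 of the 200 members. Chromatin and nuclear proteins followed with 26, cytoskeletal, adhesion and keratin genes with 14, and ribosomal proteins and translation factors with 13 each. Smaller sets were 8 transcription factors and signalling genes, 7 chaperone and ubiquitin genes, 6 mitochondrially encoded genes, 6 nucleolar proteins, 6 metabolic enzymes and transporters, 5 each for cell cycle, lysosome and nuclear transport, 4 for membrane, junction and matrix, 3 each for energy metabolism, histones, and lipid and iron handling, and 11 others. Lists of name patterns matched 120 members, and the groups of 87, some of which a list had also matched, were set by hand from the name. The plot of control levels by function shows that each large group spans most of the range.

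**Figure D1:**
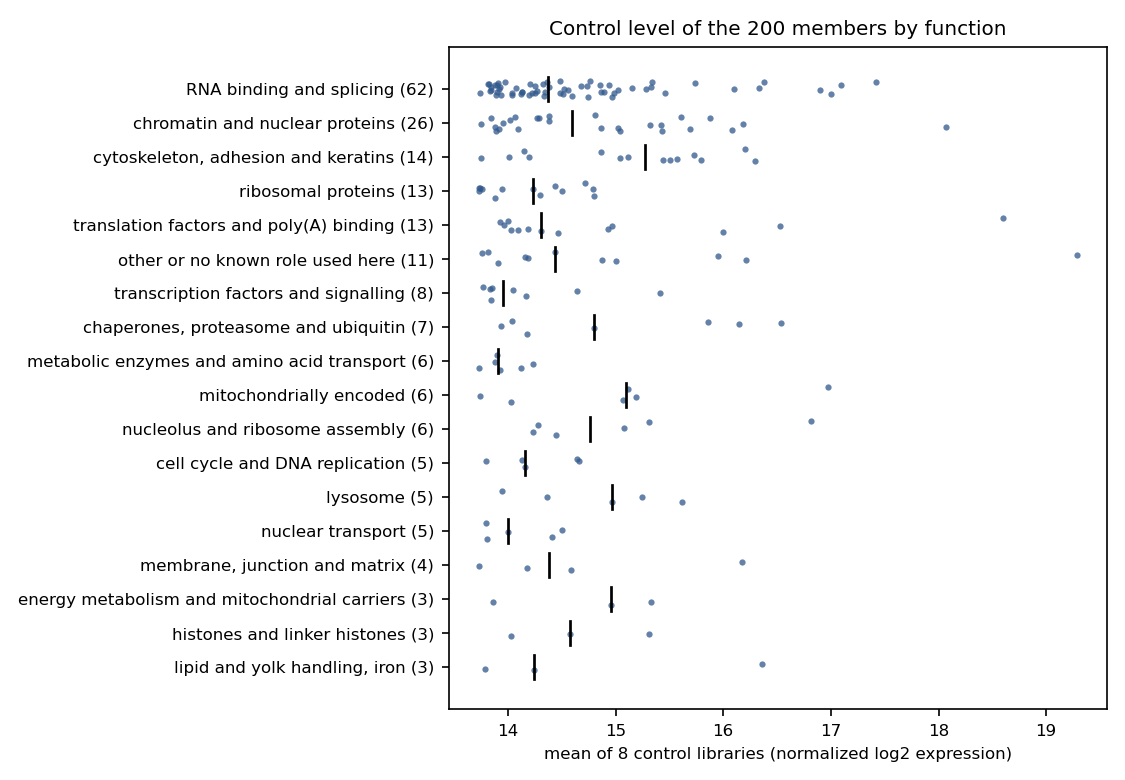
Each point is 1 of the 200 members, placed by its mean over 8 control libraries (x axis, normalized log2 expression, not per length) within its function group (y axis, number of members in parentheses); black bars are group medians. RNA-binding and splicing genes (62) are the most numerous, and the single gene at the far right, at 19.29, has no symbol.

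The highest value belonged to ENSDARG00000080337, an identifier without a symbol, to which no role is given here. It held 19.40 in all 8 valproic acid libraries, and its median was also 19.40 in retinoic acid, folic acid and control libraries, with a lowest value of 18.48 in each of these groups. Where it stood at 18.48 it had changed places with eef1a1l1, the elongation factor that brings charged tRNA to the ribosome. The next places were taken by hmga1a, an architectural chromatin protein, with a median of 18.07 in every group, and by cirbpb, a cold-inducible RNA-binding protein, with a median of 17.42 in every group. Of the first 20 members, 6 are RNA-binding proteins, among them khdrbs1a, hnrnpa0b, hnrnpa0l and YBX1. Others are the cytochrome oxidase subunit MT-CO1, nucleolin (ncl), the chaperones HSPA8 and HSP90AB1, the translocation factor eef2b, the lipid carrier apoeb, beta-actin (actb2), the non-coding RNA malat1, keratin krt4, HMGB2 and the connexin gjc4b.

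Of 11 enveloping-layer markers, 10 were measured and 4 were members: krt4, krt5, krt8 and krt18a.1. Median values of krt4 were 16.16 in valproic acid, 16.25 in retinoic acid, 16.17 in folic acid and 16.18 in control libraries, and none of the 4 keratins passed the test in any comparison between groups. Of all 10 measured markers of this layer, 1 passed, anxa1c, an annexin, which is no member: it averaged 9.10 in valproic acid, 10.22 in retinoic acid, 10.03 in folic acid and 10.03 in control libraries, and fell in valproic acid against folic acid at -0.93. The median over the 10 was 13.48 in valproic acid, 13.40 in retinoic acid, 13.42 in folic acid and 13.42 in control. Of 7 measured markers of the yolk syncytial layer, none of them members, apoa1b (-0.82) and gata6 (-0.41) fell in valproic acid against folic acid, and the median over the 7 was 10.74 in valproic acid, 10.83 in retinoic acid, 10.85 in folic acid and 10.99 in control. The part of these layers in the members' values was not tested. Medians of the germ-cell markers were 7.34 in valproic acid, 7.36 in retinoic acid, 7.53 in folic acid and 7.33 in control. Of 7 markers of differentiated cells that such an embryo should lack, only col1a1a was in the table, at a mean of 4.24 in control libraries.

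The members varied less than other genes, but they were chosen for their high values. No other genes of like level were there to compare, so the smaller spread is no sign that the members are steady for their level. Over the 24 treated libraries the median SD was 0.185 for members and 0.425 for the other 15510 genes, and 95% intervals of a group difference reached 0.171 to either side for the median member and 0.362 for the median gene. The steadiest members were FZD7, a Wnt receptor, with an SD of 0.0768, hnrnpa0l with 0.0785 and ewsr1b, an RNA-binding protein, with 0.0820. The most variable were malat1 with an SD of 0.521, pou5f3, a transcription factor needed to switch on the embryo's genome, with 0.435, and MT-CO2 with 0.420. malat1 ranged from 15.97 to 17.04 (median 16.57) in valproic acid, from 15.14 to 16.52 (median 16.10) in retinoic acid, from 14.85 to 17.21 (median 16.18) in folic acid and from 15.70 to 16.75 (median 16.23) in control libraries. These 4 ranges overlap. With all libraries malat1 was not called between groups, and without folic acid replicates 7 and 8 it was called in valproic acid against folic acid, at 0.58 with an adjusted p of 0.0419 in limma.

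Some libraries stood apart. Retinoic acid replicate 3 had 156 of the members among its own 200 highest genes and folic acid replicate 8 had 168. The control libraries had 183 to 192, the valproic acid libraries 171 to 185 and the other retinoic acid libraries 176 to 190. The control libraries chose the members, so their own counts are high by the choice and are no measure for the treated libraries. As a guide to depth, the distinct values at or below the lower quartile of each library were counted, since read counts were not available. Folic acid replicates 7 and 8 had 13 and 14, the lowest counts, and the others up to 53.

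Between groups, genes were called at an adjusted p under 0.05 in limma, fitted over all genes and all 32 libraries. Since the control libraries chose the members, the differences from folic acid use only libraries that took no part in the choice. Their SE and p-values, however, rest on a spread estimated from all 32 libraries, control included. The comparisons with control are given beside them as a description. Neither is free of the choice in direction, since genes that reach the highest 200 only in a treated group are left out. For valproic acid against control, 10 members were higher and 22 lower. With the 200 genes chosen by the mean of all 32 libraries, 13 were higher and 19 lower. The 2 comparisons of a compound share that compound's libraries, so a call in both is not independent evidence. Between folic acid and control 0 members and 0 of all genes were called by limma. At an unadjusted p under 0.05 there were 2 members, HNRNPA1L2 and SNRNP70.

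Valproic acid changed the most members. Against folic acid 27 of the 200 were called, 7 higher and 20 lower, and against control 32, 10 higher and 22 lower. Over all genes 29.3% were called against folic acid (14.9% higher, 14.4% lower) and 31.3% against control (15.9% higher, 15.4% lower), so the members' shares of 13.5% and 16% are below the background of both comparisons. No member differed by 2-fold, while 1141 genes of the whole table differed by at least that much from folic acid. The median absolute log2 difference from folic acid was 0.101 for members and the largest were -0.52 and 0.44. Without valproic acid replicate 4, 19 members were called against folic acid and 29 against control. The shares of all genes above are from the fit on all 32 libraries, so they are no background for these 2 counts. Fitted on the valproic acid and folic acid libraries alone, the calls of CTCF, ewsr1b, GSPT1, HNRNPL, MT-ATP6, RPL3, SNRNP70 and tuba8l4 were lost. Their adjusted p in limma then lay between 0.0501 and 0.0885, and akap8l and RPL6 were called instead. Of the 27 members called against folic acid, 20 kept their sign across all 4 title-number sets, counted on the same libraries that gave the calls.

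**Figure D2:**
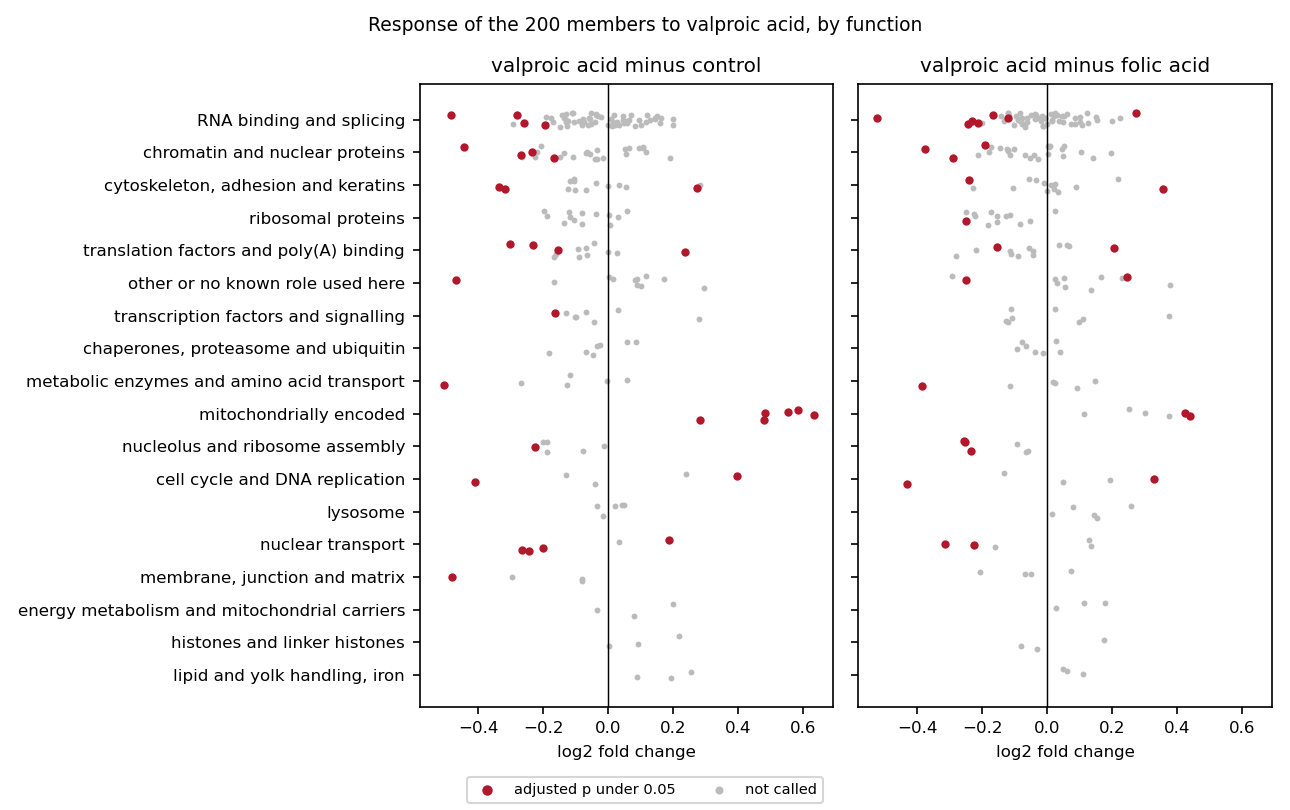
Points are the 200 members in rows of function; the x axis is the log2 fold change of valproic acid against control (left) and against folic acid (right), and red points passed an adjusted p of 0.05 in limma. All 6 mitochondrially encoded members lie right of 0 in both panels, and the farthest point to the left against folic acid is srsf5a at -0.52.

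Among RNA-binding and splicing members, 6 of 62 fell and 1 rose against folic acid, and the median log2 fold change was -0.02. Over all genes 14.4% were called lower and 14.9% higher, so these calls are no more frequent than that background. Of 174 other genes that match this list's name patterns, 24 fell and 24 rose against folic acid. The strongest fall was that of srsf5a, a serine- and arginine-rich splicing factor. It ranged from 13.40 to 14.005 with a median of 13.61 in valproic acid libraries, against 13.98 to 14.31 with a median of 14.16 in folic acid and 13.95 to 14.33 with a median of 14.13 in control libraries. Only the highest valproic acid library reached the range of the other groups. The log2 fold change was -0.52 ± 0.08 (SE, n = 8 each) against folic acid, with an adjusted p of 5.14e-06 in limma, and -0.48 against control, and in the 4 title-number sets the difference from folic acid lay between -0.67 and -0.41. Smaller falls against folic acid were found for hnrnpa1a at -0.24, for G3BP1, a protein of stress granules, at -0.23, for HNRNPL at -0.21, for the U1 snRNP protein SNRNP70 at -0.17 and for ewsr1b at -0.12. The call of ewsr1b was lost without valproic acid replicate 4, with an adjusted p of 0.061. The member that rose was HDLBP (vigilin), by 0.27. Without the libraries numbered 25 to 36, the calls of hnrnpa1a, HNRNPL, SNRNP70, ewsr1b and HDLBP against folic acid were lost. Their adjusted p in limma then lay between 0.0655 and 0.17. Against control srsf5a, HNRNPL and G3BP1 were among the 4 RNA-binding members that fell, and none rose.

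Among cell cycle members the signs were mixed. MCM7, a subunit of the helicase that opens DNA for replication, ranged from 13.56 to 13.96 with a median of 13.71 in valproic acid libraries, against 14.03 to 14.29 with a median of 14.13 in folic acid and 13.98 to 14.22 with a median of 14.15 in control libraries. The valproic acid libraries overlapped with neither group. Its log2 fold change was -0.43 ± 0.07 (SE, n = 8 each) against folic acid, with an adjusted p of 1.67e-05 in limma, and -0.41 against control. CCNG1, cyclin G1, known as a target of p53, rose instead: its values were 13.99 to 14.47 (median 14.17) in valproic acid, against 13.63 to 14.05 (median 13.85) in folic acid and 13.56 to 14.03 (median 13.79) in control libraries. The log2 fold change of CCNG1 was 0.33 ± 0.08 against folic acid (adjusted p 0.00112, limma) and 0.40 against control. The other cell cycle members, mki67, CCND1 and PCNA, were not called in either comparison with all libraries. PCNA, the clamp that holds the polymerase on DNA, was called against folic acid without folic acid replicates 7 and 8, at -0.17 with an adjusted p of 0.0279, and in the fit that blocks on title-number set, at -0.13 with an adjusted p of 0.039. Against control it was called in the blocked fit and without the libraries numbered 25 to 36. CCND1, cyclin D1, had a log2 fold change of 0.24 against control, which was called under 3 other settings, with adjusted p between 0.035 and 0.0499, and under no setting against folic acid.

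Nuclear transport carries proteins and RNA through the nuclear pore, with importins as carriers and the GTPase RAN setting the direction. Of 5 members, 2 fell and 0 rose against folic acid. KPNB1, importin beta, ranged from 13.42 to 13.67 with a median of 13.51 in valproic acid, against 13.69 to 14.02 with a median of 13.84 in folic acid libraries, without overlap. Its control values, 13.61 to 13.93 with a median of 13.85, did overlap with those of valproic acid. RAN ranged from 14.11 to 14.29 in valproic acid, against 14.32 to 14.51 in folic acid and 14.36 to 14.48 in control libraries, without overlap with either. The log2 fold change against folic acid was -0.31 for KPNB1 (adjusted p 0.000459, limma) and -0.23 for RAN (adjusted p 0.00106, limma). Against control KPNB1 (-0.26), the importin IPO5 (-0.24) and RAN (-0.20) fell, and ranbp1, which binds RAN, rose by 0.19. The call of ranbp1 was lost without valproic acid replicate 4, with an adjusted p of 0.0876. Without the libraries numbered 25 to 36, those of KPNB1 and IPO5 against control were lost (adjusted p 0.0808 and 0.0681, limma).

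The nucleolar group was made by hand once the members were known, and ncl and npm1a were moved to it from the chromatin list. All 6 members of the group were below 0 in both comparisons. The median log2 fold change was -0.16 against folic acid and -0.19 against control, where the median over all genes was -0.02 and -0.01. Against folic acid 3 fell: NOP56, a core protein of the box C/D particles that guide RNA methylation, by 0.26 on the log2 scale, npm1a, nucleophosmin, by 0.25 and DKC1, the pseudouridine synthase dyskerin, by 0.23. npm1a ranged from 14.94 to 15.32 with a median of 15.06 in valproic acid, against 15.20 to 15.46 with a median of 15.33 in folic acid libraries, so that the ranges overlapped at their edges. Without folic acid replicates 7 and 8 the calls of NOP56 (adjusted p 0.0548, limma) and DKC1 (adjusted p 0.137, limma) were lost. Against control, with all libraries, npm1a was the nucleolar member called, at -0.23. Fitted on the valproic acid and control libraries alone, NOP56 and DKC1 were also called against control. Both stood at -0.19, with adjusted p of 0.0257 and 0.031 in limma. Nucleolin (ncl), FBL and NOP58 were called in neither comparison.

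Of 13 ribosomal protein members, 1 fell against folic acid, RPL3 at -0.25 with an adjusted p of 0.0411 in limma, and 0 were called against control. The call of RPL3 was lost without folic acid replicates 7 and 8, with an adjusted p of 0.114, and without valproic acid replicate 4, with an adjusted p of 0.065. The median log2 fold change was -0.16 against folic acid, with 12 of 13 below 0, and -0.08 against control, with 9 of 13 below 0. Of the 94 ribosomal protein genes of the whole table, 3 fell and 4 rose against folic acid, with a median of -0.19. Their median was 0.02 in valproic acid against control and 0.21 in folic acid against control, the latter without a call. Translation factors moved in both directions: GSPT1, the release factor eRF3, fell in both comparisons (-0.16 and -0.23), and metap2b, a methionine aminopeptidase that trims new proteins, rose in both (0.20 and 0.24). Without valproic acid replicate 4 the call of GSPT1 against folic acid was lost, with an adjusted p of 0.0774. The elongation factor eef2b ranged from 15.78 to 16.52 in valproic acid, against 16.26 to 16.95 in control libraries, a log2 fold change of -0.30 against control. Against folic acid eef2b was not called. EIF3A, a subunit of an initiation factor, fell against control at -0.15, a call lost without valproic acid replicate 4 (adjusted p 0.0918, limma).

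Of 26 chromatin and nuclear members, 3 fell against folic acid and 4 against control, and none rose in either. Over all genes 14.4% and 15.4% were called lower in these comparisons, so the falls are no more frequent than that background. Of 52 other genes that match this list's name patterns, 9 fell and 8 rose against folic acid, and 8 fell and 10 rose against control. One of the 2 copies of SET, a histone chaperone, fell in both: ENSDARG00000003920 ranged from 14.79 to 14.93 in valproic acid, against 14.93 to 15.16 in folic acid and 14.95 to 15.09 in control libraries, at log2 fold changes of -0.19 and -0.17. The other copy was not called in either. In the fit that blocks on title-number set it was called against folic acid, at -0.145 (adjusted p 0.0231, limma). CTCF, the insulator protein, had wide values of 12.95 to 14.13 (median 13.39) in valproic acid, against 13.66 to 14.16 (median 13.80) in folic acid and 13.77 to 14.27 (median 13.87) in control libraries, and fell at -0.37 and -0.44. By title-number set, its difference from folic acid was -0.80 in numbers 1 to 12 but -0.05 in numbers 25 to 36. The high-mobility-group protein hmgb2b fell against folic acid at -0.29. The arginine methyltransferase PRMT1 (-0.27) and SMARCA4, the motor of a chromatin-remodelling complex (-0.24), fell against control. The histones h3f3a, h3f3d and h2az2b were not called, but in the blocked fit h3f3a was called against control, at 0.22 (adjusted p 0.0177, limma).

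In the cytoskeleton and adhesion group, the tubulin genes tuba8l4 and tubb2b fell against control at -0.32 and -0.34, and tuba8l4 also against folic acid at -0.24, a call lost without valproic acid replicate 4 (adjusted p 0.112, limma). Without folic acid replicates 7 and 8, tubb2b was also called against folic acid, at -0.33 (adjusted p 0.00542, limma). ctnnb2, a beta-catenin that acts in adhesion and in Wnt signalling, rose by 0.36 ± 0.10 against folic acid (adjusted p 0.00692, limma) and by 0.27 against control. Its values were 14.16 to 14.74 (median 14.43) in valproic acid, against 13.88 to 14.30 (median 14.05) in folic acid and 13.86 to 14.37 (median 14.19) in control libraries. Its paralog CTNNB1 was not called. Outside these groups pck2, mitochondrial phosphoenolpyruvate carboxykinase, fell in both comparisons (-0.38 and -0.51). The laminin LAMB1 and fetub, fetuin B, fell against control at -0.48 and -0.47 and were not called against folic acid, and LAMB1 is 1 of the members just inside the limit. stm, starmaker, known from zebrafish otoliths, rose by 0.25 against folic acid. A further gene, si:ch211-222l21.1, fell by 0.25 on the log2 scale against folic acid, and no role is given to it here. Without folic acid replicates 7 and 8 the calls of pck2, stm and si:ch211-222l21.1 against folic acid were lost, with adjusted p between 0.076 and 0.0938 in limma. Those of pck2 and si:ch211-222l21.1 were also lost without valproic acid replicate 4, as was that of fetub against control.

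The 6 mitochondrially encoded members are MT-CO1, MT-CO2 and MT-CO3 of cytochrome oxidase, MT-CYB of complex III, MT-ND4 of complex I and MT-ATP6 of ATP synthase. In valproic acid against folic acid they lay between 0.11 and 0.44, and 2 were called: MT-ND4 at 0.42 ± 0.15 (adjusted p 0.0257, limma) and MT-ATP6 at 0.44 ± 0.16 (adjusted p 0.0388, limma). Without valproic acid replicate 4, 0 of the 6 were called against folic acid, with a median log2 fold change of 0.24, against 0.34 with all libraries. Against control, as a description, all 6 were called, with log2 fold changes from 0.28 for MT-CO1 to 0.64 for MT-ATP6, and 5 without valproic acid replicate 4. Of the 13 genes in the table with a mitochondrial symbol, 12 rose against control and 5 against folic acid. Identifiers without a symbol, ENSDARG00000080337 among them, could not be matched to this group. A mitochondrially encoded gene among them would be missed in these counts and in the shares below.

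MT-ATP6 ranged from 13.86 to 14.95 with a median of 14.36 in valproic acid, against 13.34 to 14.85 with a median of 13.86 in folic acid and 13.34 to 14.13 with a median of 13.81 in control libraries. MT-ND4 ranged from 14.30 to 15.16 with a median of 14.61 in valproic acid, against 13.75 to 15.18 with a median of 14.06 in folic acid and 13.53 to 14.37 with a median of 14.13 in control libraries. The groups overlap for both genes, and folic acid replicate 8 held the highest folic acid value of MT-ND4, 15.18, with the next at 14.25. Without folic acid replicates 7 and 8, the 2 lowest by the guide to depth, 4 of the 6 were called against folic acid, MT-CYB and MT-CO3 besides. Without the libraries numbered 25 to 36, 0 of the 6 were called against folic acid and 4 against control, while the median log2 fold changes were 0.36 and 0.56 and all 6 stayed above 0.

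Together the 6 genes took 1.40% to 2.29% of the summed linear values in valproic acid libraries, 1.17% to 1.77% in retinoic acid, 1.097% to 2.22% in folic acid and 0.942% to 1.57% in control. The highest valproic acid share, 2.29%, was that of replicate 4, in which 171 of the members were among its own 200 highest genes, and the other 7 reached at most 1.765%. The highest folic acid share, 2.22%, was that of replicate 8, and the other 7 reached at most 1.485%. The part of depth or of RNA quality in these values was not tested. In retinoic acid no gene with a mitochondrial symbol was called against folic acid or control.

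**Figure D3:**
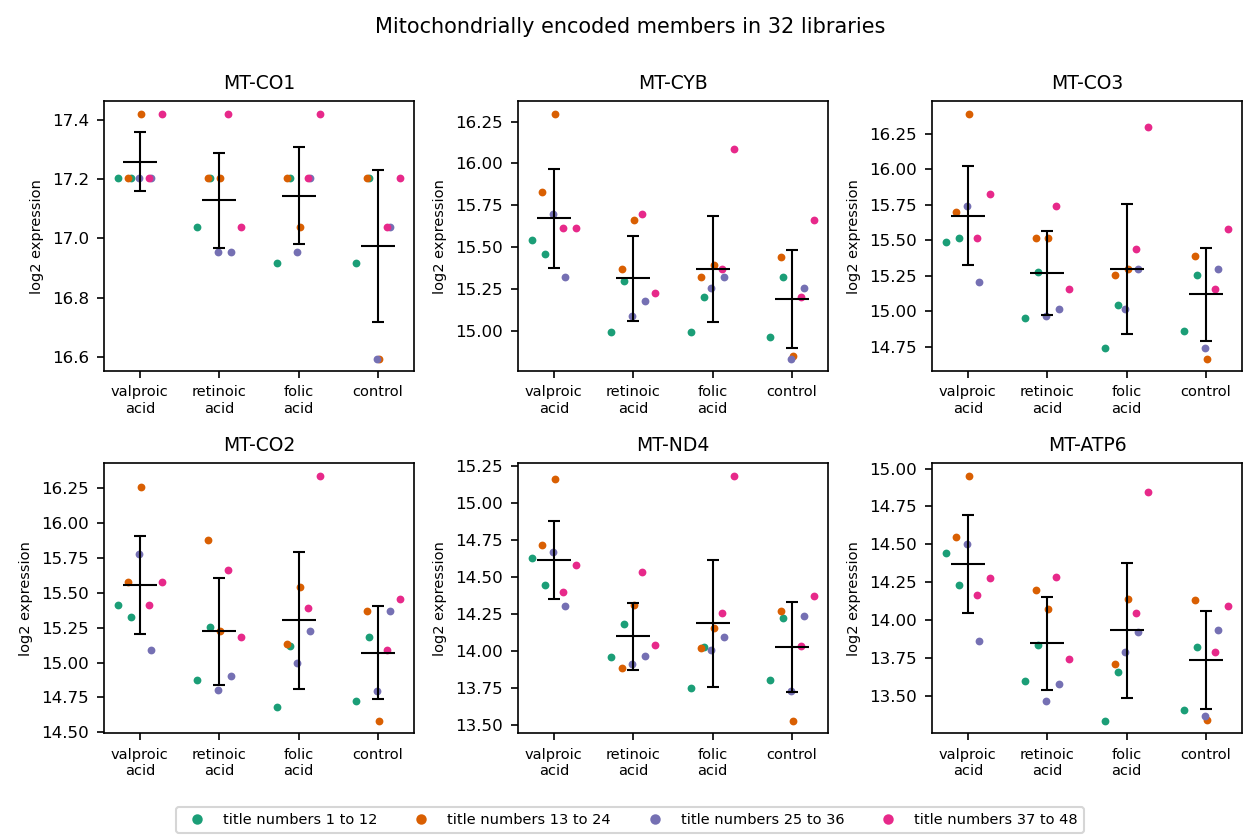
Each panel is 1 mitochondrially encoded member, with 8 libraries per group on the x axis and normalized log2 expression on the y axis; colours are title-number sets, and black bars are the mean ± SD. Valproic acid means lie highest in all 6 panels, and the single high folic acid point of MT-ND4 at 15.18 is replicate 8.

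Retinoic acid changed few members. Against folic acid 2 of 200 were called, 1 higher and 1 lower, where 0.866% of all genes were called (0.662% higher, 0.204% lower), and against control the same 2, where 0.732% were called (0.592% higher, 0.14% lower). sp5l, a transcription factor of the Sp1 family that acts downstream of Wnt signals in zebrafish, ranged from 14.15 to 14.51 with a median of 14.19 in retinoic acid, against 13.71 to 13.89 with a median of 13.82 in folic acid and 13.66 to 14.06 with a median of 13.88 in control libraries. All 8 retinoic acid libraries were above every folic acid and control library. The log2 fold change was 0.43 ± 0.06 (SE, n = 8 each) against folic acid, with an adjusted p of 1.49e-05 in limma, and 0.39 against control, and by title-number set the difference from folic acid lay between 0.35 and 0.54. In valproic acid libraries the log2 fold change of sp5l was -0.13 against folic acid, which was not called, and -0.16 against control, a call lost without valproic acid replicate 4.

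chrd encodes Chordin, the dorsal antagonist of BMP signals. It ranged from 13.11 to 13.75 with a median of 13.51 in retinoic acid, against 13.63 to 14.01 with a median of 13.91 in folic acid and 13.68 to 14.10 with a median of 13.85 in control libraries. The ranges overlap slightly. Its log2 fold change was -0.41 ± 0.09 against folic acid, with an adjusted p of 0.0108 in limma, and -0.37 against control. Retinoic acid replicates 3 and 4, at 13.11 and 13.21, were lowest. The call against folic acid was lost under 2 of 11 other settings, with each pair of libraries of a group and set averaged (adjusted p 0.16) and without the libraries numbered 25 to 36 (adjusted p 0.0801). The call against control was lost under 6 of 11, among them without retinoic acid replicate 3 (adjusted p 0.107) and without control replicate 1 (adjusted p 0.0798), with a largest adjusted p of 0.333.

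CRABP2, the cellular carrier of retinoic acid, ranged from 13.65 to 14.66 with a median of 14.29 in retinoic acid, against 13.88 to 14.15 with a median of 14.01 in folic acid and 13.98 to 14.15 with a median of 14.04 in control libraries. It was named after its values were seen. The lowest retinoic acid value, 13.65, was that of replicate 3. With all libraries it was not called (log2 fold change 0.23 against folic acid, adjusted p 0.477), and without replicate 3 it was called in both comparisons, at 0.32 against folic acid with an adjusted p of 0.00773 in limma and at 0.31 against control. VANGL2, a planar polarity protein, and FZD7 were not called in retinoic acid.

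**Figure D4:**
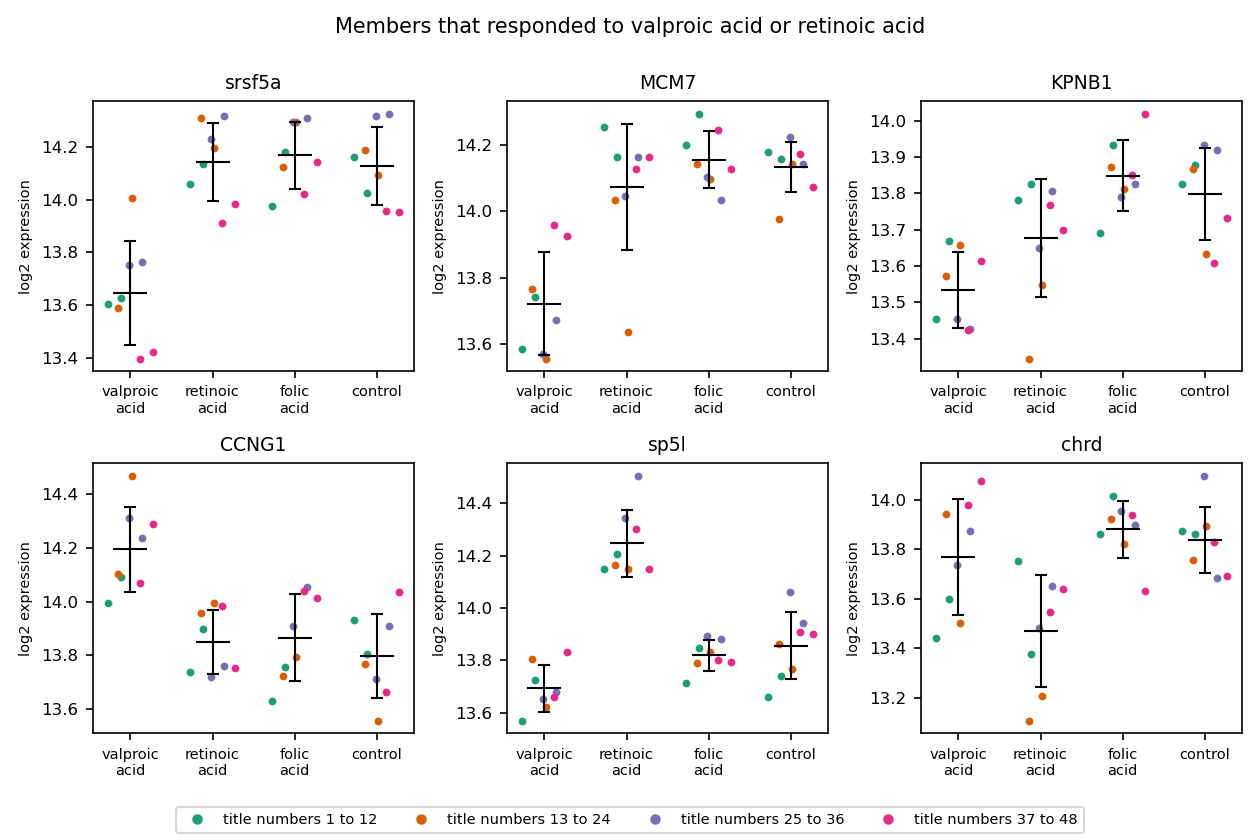
Each panel is 1 member with 8 libraries per group on the x axis and normalized log2 expression on the y axis; colours are title-number sets, and black bars are the mean ± SD. MCM7 in valproic acid and sp5l in retinoic acid do not overlap with folic acid or control, and retinoic acid replicates 3 and 4 are the lowest points of chrd.

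The sets of title numbers were compared over the 24 treated libraries, with the group in the fit, so the control libraries that chose the members played no part. Numbers 25 to 36 stood out from 1 to 24: 44 of 200 members were called, 24 higher and 20 lower, where 21.0% of all genes were called (10.2% higher, 10.8% lower). At 22%, the members' share is close to that background. All 44 had the same sign in the valproic acid, retinoic acid and folic acid libraries. This follows in part from the call, which pooled these same libraries. With only the retinoic acid and folic acid libraries, 11 were called, where 8.62% of all genes were.

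Of 8 transcription factor and signalling members, 3 were higher in this set and all 8 were above 0. Most of the 8 were placed in this group by hand, so the list's name patterns cover a different set of genes. Of the 453 genes of the whole table that match these patterns and are not members, 42 rose and 62 fell, with a median log2 fold change of 0.03. pou5f3 ranged from 14.43 to 15.12 with a median of 14.61 in numbers 25 to 36, against 13.37 to 14.52 with a median of 13.93 in numbers 1 to 24. The log2 fold change was 0.74 ± 0.10 (SE, n = 6 and 12) with an adjusted p of 1.85e-05 in limma, and it was 0.77 in valproic acid, 0.87 in retinoic acid and 0.56 in folic acid libraries. akap12b, a scaffold for protein kinase A, was higher by 0.54 and SALL4, a zinc-finger factor of pluripotent cells, by 0.38. In control libraries, outside the test, the difference of pou5f3 was 0.35.

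marcksl1b, which links actin to the membrane, ranged from 15.46 to 16.01 with a median of 15.54 in numbers 25 to 36, against 14.84 to 15.62 with a median of 14.95 in numbers 1 to 24, a log2 fold change of 0.60 (adjusted p 1.77e-05, limma). Further members that were higher are the amino acid transporter SLC7A8 (0.55), CTCF (0.45), the splicing protein acin1b (0.40), ctnnb2 (0.36), the mitochondrial carrier UCP2 (0.34) and the histone h3f3a (0.33). Of 5 lysosomal members, a group set by hand, 3 were higher, the cathepsins ctsla (0.41), ctsll (0.32) and CTSB (0.18), and all 5 were above 0. The call of CTSB was lost under 5 of 8 other settings and that of ctsll under 2 of 8. That of ctsla was kept under all 8.

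Of 13 ribosomal protein members, 5 fell in numbers 25 to 36 and all 13 were below 0, with a median log2 fold change of -0.27, where the median of all genes was -0.01. Of the 94 ribosomal protein genes in the whole table, 14 fell and 1 rose, with a median of -0.30. RPLP0, of the ribosomal stalk, ranged from 13.80 to 14.46 with a median of 14.05 in numbers 25 to 36, against 14.02 to 15.07 with a median of 14.58 in numbers 1 to 24, a log2 fold change of -0.45 (adjusted p 0.00674, limma). RPS2 fell at -0.40, RPL4 and RPL6 at -0.28 and RPL8 at -0.26. With only the retinoic acid and folic acid libraries none of these 5 calls held, with adjusted p from 0.0761 for RPS2 to 0.235 for RPL8. In control libraries the same difference was 0.01 for RPLP0, 0.03 for RPS2 and 0.20 for RPL6, without a test.

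Of 26 chromatin and nuclear members, 5 were lower and 2 higher in numbers 25 to 36, with a median log2 fold change of -0.02. Of 62 RNA-binding and splicing members, 5 were lower and 5 higher, and 43 were above 0, with a median of 0.05. The members named next are from those that were lower. ptmab, a prothymosin, ranged from 14.95 to 15.51 with a median of 15.25 in numbers 25 to 36, against 15.34 to 15.93 with a median of 15.62 in numbers 1 to 24, a log2 fold change of -0.37 (adjusted p 0.00289, limma). The nucleosome-binding protein hmgn1a and si:ch211-222l21.1 were lower at -0.32, TPT1 at -0.30, acin1a at -0.29 and SERBP1 at -0.24. For SERBP1 the groups did not overlap: 15.07 to 15.25 in numbers 25 to 36, against 15.30 to 15.54 in numbers 1 to 24. Mitochondrially encoded members were not called, at -0.22 to -0.09.

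**Figure D5:**
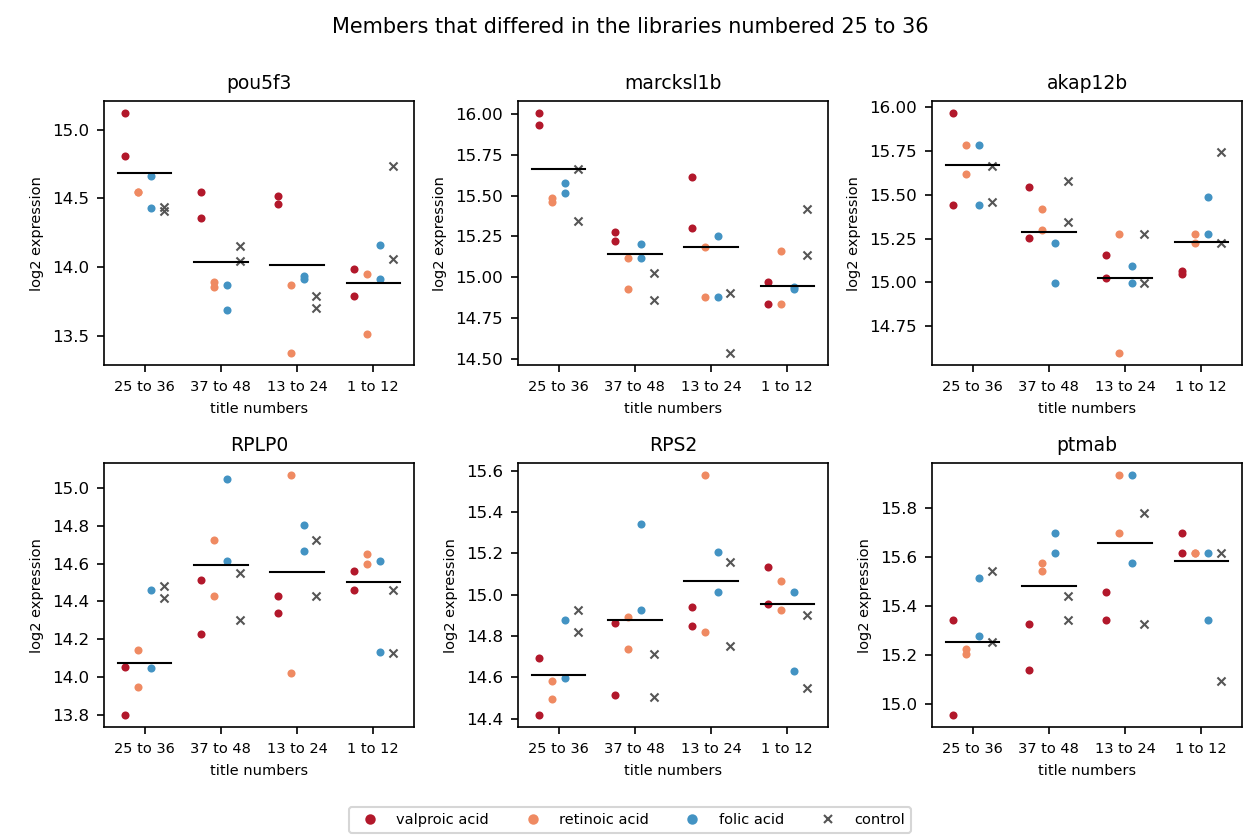
Each panel is 1 member, with the 4 title-number sets on the x axis and normalized log2 expression on the y axis; colours are groups, crosses are control libraries (not in the test), and black bars are means of 6 treated libraries. Treated libraries numbered 25 to 36 are high for pou5f3, marcksl1b and akap12b and low for RPLP0, RPS2 and ptmab.

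In the other sets fewer members were called. Between numbers 37 to 48 and 1 to 24, 4 members were called where 5.05% of all genes were (2.48% higher, 2.58% lower), among them ODC1, the first enzyme of polyamine synthesis (0.30), ctnnb2 (0.25) and the RNA-binding protein rbm4.3 (-0.21). Between numbers 13 to 24 and 1 to 12, 1 member was called where 2.3% of all genes were (1.14% higher, 1.16% lower). This was ODC1, at 13.48 to 13.78 in numbers 13 to 24, against 13.90 to 14.07 in numbers 1 to 12, a log2 fold change of -0.31 (adjusted p 0.0203, limma) without overlap. The call was lost without valproic acid replicate 4, with an adjusted p of 0.0652. In this comparison all 6 mitochondrially encoded members were above 0 without a call, with a median log2 fold change of 0.41. Their median in valproic acid against folic acid was 0.34. Of 14 cytoskeletal and adhesion members, 13 were below 0 without a call, with a median of -0.16. For numbers 37 to 48 against 1 to 24 the 6 mitochondrially encoded members were also above 0 without a call, with a median of 0.20.

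Whether the responses differed between the sets was tested directly. For valproic acid against folic acid, 0 members passed an adjusted p of 0.05 in limma, 15 had an unadjusted p under 0.05 and 0.0191% of all genes were called. For retinoic acid against folic acid, 0 members and 0 genes passed, and 1 member had an unadjusted p under 0.05. With control in place of folic acid, 4 members passed for valproic acid where 1.98% of all genes did: CTCF (adjusted p 0.0136, limma), acin1b, pou5f3 and marcksl1b.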

How the data were processed

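Polyadenylated RNA of whole embryos was extracted with Qiazol and made into libraries using the directional NEBNext Ultra II kit, per the labels. The authors deposited normalized log2 expression of 15710 Ensembl genes in 32 libraries. Per the submitters' processing notes, HTSeq 0.11.0, limma and the build GRCz11 were used. For the aligner, annotation release, low filter and normalization the sources used here give nothing. The deposited values run from 0 to 19.4 and are alike at each rank, as quantile normalization gives, so a shift common to most genes cannot be seen. Library totals cannot be had, and intervals are those of the fit.

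Members were ranked by their control mean, and some genes are not reported here. Tests used limma 3.58.1 in R 4.3.3 with an intensity trend, a mean per group, all 32 libraries, Benjamini-Hochberg adjustment over all genes and a threshold of 0.05; 95% intervals are from the same fit. Title-number sets were fitted on the 24 treated libraries with group as a term, and differences of response between sets with an interaction. The fit was tested on simulated data. Replicates were numbered in accession order, so they pair nothing; title sets served as a block in an alternative. The design planned a count test for a count table; since the table holds log2 values, limma was used and no count test was run.

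Symbols came from a table of Ensembl identifiers. Sequence features were not analysed here and no genome was used. Members, function lists, markers and tests were chosen with earlier results of these data known. Genes named are the 20 highest, up to 10 called rises and 10 called falls per comparison with the same sign in every set or group, those next to the limit, the 3 most and 3 least variable and the highest of each function group; most members counted in groups of 5 or fewer are named besides. Other settings were no trend, median centring, a title-set block, means of each pair of libraries of a group and set, only the groups compared, a filter at a mean of 5, other choices of members, and fits without single libraries or sets. The fits without retinoic acid replicate 3 and without valproic acid replicate 4 were chosen after seeing the data.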

Additional observations from a re-analysis of the deposited data

Results flagged for a closer look

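Named members and 2 summaries were checked in 320 groups of 8 libraries for a library far from the others of its group (Dixon's gap). In all, 42 were found. The cutoff gives about 1 in 20 groups by chance for independent, normally distributed values. Of these, 10 are in retinoic acid replicate 3, 8 in folic acid replicate 8, 5 in retinoic acid replicate 4 and 4 in control replicate 1. At the highest ranks many are genes that changed places. Values there are tied to ranks, so a single swap can by itself flag a gene or both genes. The 42 can therefore not be held against the rate of 1 in 20. The identifier ENSDARG00000080337 stood at 18.48 in retinoic acid replicate 2 and in control replicate 1, with the others at 19.40, while eef1a1l1 stood at 19.40 in both and at 18.07 in valproic acid replicate 1. hmga1a stood at 18.48 in valproic acid replicate 1 and retinoic acid replicate 4, with the others at 18.07. cirbpb was at 17.21 in retinoic acid replicate 7 and 17.04 in folic acid replicate 8, khdrbs1a at 16.75 in valproic acid replicate 4 and 16.59 in folic acid replicate 8, and hnrnpa0b at 17.04 in valproic acid replicate 6 and 17.21 in retinoic acid replicate 6. hnrnpa0l was at 16.75 in folic acid replicate 1 and in control replicate 7. ncl was at 16.20 in valproic acid replicate 4 and in folic acid replicate 8.

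In retinoic acid replicate 3, 156 members were among its own 200 highest genes and the members' share was 34.4%, with the other 7 libraries of the group at 176 to 190 and at 35.15% to 35.53%. In this library malat1 was at 15.14, gjc4b at 15.46, PRMT1 at 13.37, HDLBP at 13.87, akap12b at 14.60, SALL4 at 13.44 and IPO5 at 13.90, all below the rest of the group, and hmgb2b was above it at 14.996. In retinoic acid replicate 4, HSPA8 (16.26), MCM7 (13.64) and tubb2b (13.63) were low and HNRNPAB (ENSDARG00000007960) was high at 16.75.

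In folic acid replicate 8 the mitochondrially encoded MT-ND4 (15.18), MT-CO3 (16.30) and MT-CYB (16.09) were high, and HNRNPAB (ENSDARG00000007960) at 16.06 and tubb2b at 13.47 were low. In control replicate 1, gjc4b (16.45) and CTCF (14.27) were high. Single cases were HMGB2 at 16.52 in folic acid replicate 4, HNRNPL at 14.41 in control replicate 4, si:ch211-222l21.1 at 15.66 in retinoic acid replicate 5 and ewsr1b at 14.73 in valproic acid replicate 1. The part of depth or RNA quality in these values was not tested.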

How the results depend on the processing

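No called member changed sign under the settings run. For numbers 25 to 36 the calls were 24 higher and 20 lower, against 18 and 22 with pairs averaged and 23 and 25 without retinoic acid replicate 3. MT-ND4 in folic acid against control, not called, was 0.16, and -0.01 without folic acid replicates 7 and 8. Of the 112 calls of members over all comparisons, 39 passed under every setting of their comparison: 18 of 32 for valproic acid against control, 8 of 27 for valproic acid against folic acid (srsf5a, MCM7, KPNB1, RAN, npm1a, SET, G3BP1 and CCNG1), sp5l in both retinoic acid comparisons, and 11 of 44 for numbers 25 to 36. With each pair of libraries of a group and set averaged, 12 members were called for valproic acid against folic acid (19.9% of all genes), 1 in each retinoic acid comparison, 0 for numbers 13 to 24 and 1 for numbers 37 to 48. Without the libraries numbered 25 to 36 the count for valproic acid against folic acid was 13 (24.2% of all genes) and that of each retinoic acid comparison 1. Retinoic acid against control gave 1 without the trend (0.643% of all genes), with only the 2 groups, and without control replicate 1, and numbers 37 to 48 gave 1 without the trend (4.2%). With all 32 libraries, numbers 13 to 24 gave 2 (1.6%) and numbers 37 to 48 gave 9 (9.19%). With only retinoic acid and folic acid libraries, numbers 13 to 24, 25 to 36 and 37 to 48 gave 0, 11 (8.62%) and 0. Without folic acid replicates 7 and 8, numbers 13 to 24 gave 2, and without valproic acid replicate 4, 0. Of the 100 highest members alone, 12 and 10 were called for valproic acid against control and folic acid (31.3% and 29.3% of all genes). In the retinoic acid comparisons 0 were called (0.732% and 0.866% of all genes). Numbers 13 to 24, 25 to 36 and 37 to 48 gave 0, 24 and 1 (2.3%, 21.0% and 5.05% of all genes). These 100 took 27.6% of the summed values in valproic acid libraries. With control as comparator, the test of the valproic acid response between sets gave 4. With the title-number sets as a replicate block, 44 members were called for valproic acid against control (37.1% of all genes) and 36 against folic acid (34.95%). Counts printed without a share of all genes have no background of the same fit beside them, so they are no result about the members alone. The causes were not tested.

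Quantile normalization ties the members to their ranks, so shifts shared by all of them are not seen. Depth per library is known only in relative terms, so its effect on a single member could not be measured. A member that was not called is not shown to be unchanged: the median half-width of the members' 95% intervals was 0.171.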
